A study of Drosophila melanogaster with 27 samples.

Results

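The mRNAs described here are those of 31 *Drosophila* genes that mark glia or build the junctions by which glia and epithelia seal. They were chosen by name and FlyBase identifier as glial marker, blood-brain barrier, gap junction and septate junction genes, and all 31 were found among the 17529 gene identifiers of the count table. All 31 also passed the filter on low counts (12921 genes in the IP and input libraries, 13349 when the unbound libraries were added). None was at 0 in any of the 27 libraries, the lowest single value being 18 reads (*axo*).

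Glia of the fly brain come in layers: perineurial and subperineurial cells form the blood-brain barrier, cortex and wrapping glia enclose cell bodies and axons, and astrocyte-like glia take up transmitters at synapses. Subperineurial glia close the barrier with septate junctions, built from claudin-like, immunoglobulin-domain and Neurexin-family proteins on a cytoplasmic scaffold, while gap junctions made of innexins couple glial cells to each other. The same septate junction proteins are used by epithelia and trachea, and some of these genes are also read in neurons, so the list is not one of glial RNA alone. TDP-43 is an RNA-binding protein, and here it was expressed in neurons.

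RNA immunoprecipitation followed by RNA sequencing was done on whole-head lysates of flies aged 1 to 3 days, males and females pooled, in 3 genotypes driven by the *SS01276* split GAL4 line in a subset of Kenyon cells of the mushroom body. The TDP-43 WT flies carried UAS TDP43WT-YFP together with UAS mCD8-RFP (line TDP-92), the TDP-43 G298S flies carried UAS TDP43G298S-YFP with UAS mCD8-RFP (line TDP-94), and the control flies carried UAS-2XEYFP alone (line GRYFP-5). The control therefore lacked the membrane RFP and had another background, and by the study's methods its YFP was made in much greater amount than the TDP-43 YFP fusions. From each of 9 lysates (3 per genotype) came the RNA bound to GFP-Trap beads (IP), the unbound RNA and the input. The study calls these 3 biological replicates, and no source states whether lysates of a genotype came from separate crosses. The main fits had no lysate term and treated the fractions of 1 lysate as independent. Their p-values therefore measure the spread between libraries of the same genotype and fraction.

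Total counts per library ran between 1848426 (the IP of lysate G298S-503) and 157035496 (the input of G298S-203), and the 31 genes together took 0.753 to 1.09% of an IP and 0.418 to 0.626% of an input. The IP and the input of lysate WT-502 deviated together from their group means by r = 0.06 across genes, against 0.34 to 0.73 in the other 8 lysates, and this difference was not tested. Although the labels give Kenyon cells as the cell type, the lysates held whole-head RNA: summed over marker lists, photoreceptor mRNAs stood at 14608 to 22466 CPM in TDP-43 WT inputs, 11582 to 12684 in TDP-43 G298S inputs and 24138 to 31156 in YFP inputs, and Kenyon cell mRNAs at 862 to 1430, 1264 to 1364 and 453 to 629 CPM. Values are CPM (reads of a gene per 1e6 reads of the library) after TMM scaling, given lysate by lysate in the order WT-502, WT-505, WT-202, then G298S-503, G298S-506, G298S-203, then YFP-901, YFP-902, YFP-201. All adjusted p values are from edgeR's quasi-likelihood test with Benjamini-Hochberg adjustment over all genes tested, and ± after a log2FC is its standard error.

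In the inputs the 31 mRNAs spanned a wide range of levels. Per kilobase of exon, *Gs2*, the glutamine synthetase that recycles glutamate in glia, was the most abundant mRNA of the 31, at means of 768 CPM per kb in TDP-43 WT, 736 in TDP-43 G298S and 997 in YFP heads (n = 3 each). Next came *nrv2*, a β subunit of the Na,K-ATPase that is also needed at septate junctions, at 342, 311 and 226 CPM per kb in TDP-43 WT, TDP-43 G298S and YFP inputs, and *Obp44a*, a member of the odorant-binding protein family, at 133, 128 and 297. *Tret1-1*, a trehalose transporter of barrier glia, stood at 154, 147 and 103 CPM per kb, *Eaat1*, the main glutamate transporter of glia, at 133, 219 and 82.7, and *alrm*, a leucine-rich repeat protein of astrocyte-like glia, at 63.9, 49.5 and 91.9. The order of these 5 therefore differed between genotypes. In YFP input the low end was *axo*, a secreted protein related to neurexins (1.25 CPM per kb), *Gli*, a transmembrane protein of tricellular junctions (2.69), *htl*, an FGF receptor (4.11), and *loco*, a regulator of G-protein signalling (4.98). Between them lay *repo*, the homeodomain factor of glial fate (8.75), *e*, which joins β-alanine to dopamine and histamine (70.3), *Gat*, the GABA transporter (50.8), *zyd*, a Na/Ca/K exchanger of cortex glia (18.3), and *wrapper*, an immunoglobulin-domain protein (22.3). Of the 30 pairs of neighbours in this order, the lysates overlapped in 22 pairs in TDP-43 WT, 17 in TDP-43 G298S and 22 in YFP.

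The first question was whether these mRNAs were enriched with YFP-tagged TDP-43 over the head transcriptome, called at a log2FC beyond 1 and an adjusted p below 0.05. In the TDP-43 WT IP 3 of the 31 were enriched (*Gli*, *Inx2*, *Gs2*), where 10.5% of all genes tested were, and 2 were depleted (*nrv2*, *Mdr65*), where 3.03% of all genes were. With TDP-43 G298S 2 were enriched (*Gli*, *Gs2*; 7.39% of all genes) and 2 depleted (*nrv2*, *Lac*; 2.44%). In the YFP control 4 were enriched (*Gli*, *Inx2*, *sinu*, *Gs2*; 10.3% of all genes) and 0 depleted (1.42%). The median log2FC of the 31 was 0.02 in the TDP-43 WT IP, 0.27 in the TDP-43 G298S IP and 0.06 in the YFP IP, beside -0.09, -0.16 and -0.14 over all genes tested. Scaling by library totals alone moved the median of all genes by 0.88 (log2) in TDP-43 G298S, 0.37 in TDP-43 WT and 0.20 in YFP. The split was then 16 enriched and 0 depleted for TDP-43 G298S, beside 3958 and 33 of all 12921 genes. For TDP-43 WT it was 3 and 1, beside 2214 and 79 of all genes. With TMM scaling the shares of members enriched were near those of all genes or below them, and *Gli* and *Gs2* were enriched with YFP alone as well.

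**Figure D1:**
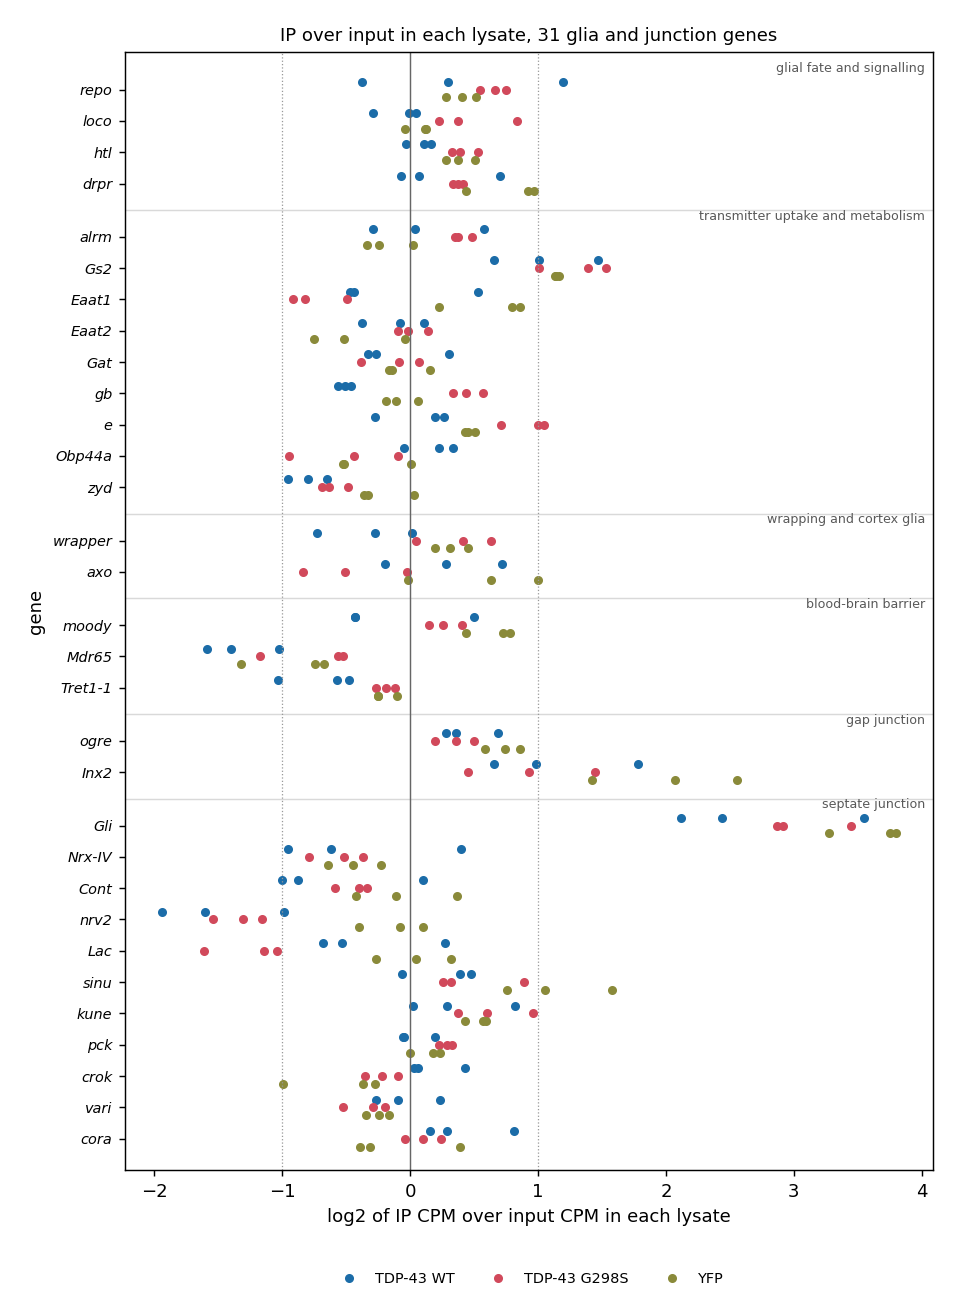
Each row is 1 gene and each point 1 lysate (3 per genotype, blue TDP-43 WT, red TDP-43 G298S, olive YFP); the x axis is the log2 of IP CPM over input CPM, with dotted lines at -1 and 1. *Gli* lies at 2.12 or more in every lysate of every genotype, *nrv2* lies at -0.99 or lower in the 6 TDP-43 lysates and -0.40 to 0.10 in YFP, and most other genes scatter around 0.

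*Gli* (FBgn0001987, chromosome arm 2L), which encodes Gliotactin, the protein that marks the points where 3 cells meet in septate epithelia and barrier glia, had the largest IP over input ratio of the 31 in each genotype. Its level was 143, 72.0 and 67.6 CPM in the TDP-43 WT IPs, against 12.2, 13.2 and 15.5 CPM in the matching inputs (log2FC = 2.79 ± 0.29, adjusted p = 6.88e-06). In TDP-43 G298S it was 157, 126 and 120 CPM in the IPs, against 14.4, 16.6 and 16.4 CPM in the inputs (log2FC = 3.08 ± 0.30, adjusted p = 4.88e-06). The YFP IPs held 197, 128 and 117 CPM, against 14.5, 13.2 and 8.35 CPM in the inputs (log2FC = 3.62 ± 0.31, adjusted p = 2.83e-06). IP and input did not overlap in any genotype, and the fold was 6.92, 8.49 and 12.3 in TDP-43 WT, TDP-43 G298S and YFP heads. The call held in all 3 genotypes under every alternative run.

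*Gs2* (FBgn0001145, chromosome X), the most abundant mRNA of the list, was enriched in all 3 genotypes. Its level was 4078, 2808 and 3770 CPM in the TDP-43 WT IPs, against 1475, 1786 and 1880 CPM in the inputs (log2FC = 1.05 ± 0.16, adjusted p = 0.000159). In TDP-43 G298S it was 4593, 3364 and 4360 CPM in the IPs, against 1586, 1676 and 1662 CPM in the inputs (log2FC = 1.32 ± 0.16, adjusted p = 3.63e-05). In YFP heads the IPs held 5117, 4917 and 4725 CPM, against 2338, 2191 and 2143 CPM in the inputs (log2FC = 1.15 ± 0.16, adjusted p = 0.000133). IP and input were again apart in every genotype. The TDP-43 WT value lay close to the threshold, and without lysate WT-502 it was 0.84 and no longer called.

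Both innexins of the list, the channel subunits of fly gap junctions that pair in barrier glia, had ratios above 0 in all 9 lysates. *Inx2* (FBgn0027108, chromosome X) stood at 500, 275 and 274 CPM in the TDP-43 WT IPs, against 145, 175 and 139 CPM in the inputs (log2FC = 1.19 ± 0.28, adjusted p = 0.00412). Without WT-502 this log2FC was 0.81 and not called. In TDP-43 G298S the IPs held 619, 381 and 440 CPM, against 228, 278 and 231 CPM in the inputs (log2FC = 0.97 ± 0.28, adjusted p = 0.0190), which missed the fold threshold. YFP IPs held 697, 332 and 414 CPM, against 118, 124 and 98.3 CPM in the inputs (log2FC = 2.08 ± 0.29, adjusted p = 0.000112), so the highest ratio was that of the control, whose inputs were the lowest. *ogre* (Innexin 1), its partner, had a log2FC of 0.46 in TDP-43 WT and 0.72 in YFP, under the fold threshold with adjusted p values of 0.0229 and 0.00166.

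Among the septate junction genes other than *Gli*, the claudin-like *sinu* (FBgn0010894, chromosome arm 3L) was enriched with YFP alone, at 109, 60.0 and 50.5 CPM in the IPs against 36.6, 35.4 and 24.2 CPM in the inputs (log2FC = 1.19 ± 0.25, adjusted p = 0.00247). Without lysate YFP-901 its log2FC was 0.89 and not called. The test of its difference between TDP-43 WT and YFP did not pass (adjusted p = 0.289), nor did that between TDP-43 G298S and YFP (adjusted p = 0.413).

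*nrv2* (FBgn0015777, chromosome arm 2L), the most abundant junction mRNA of the list, was depleted in both TDP-43 IPs. Its level was 386, 412 and 468 CPM in the TDP-43 WT IPs, against 1483, 1251 and 928 CPM in the inputs (log2FC = -1.53 ± 0.19, adjusted p = 3.11e-05). In TDP-43 G298S it was 466, 443 and 407 CPM in the IPs, against 1043, 1093 and 1187 CPM in the inputs (log2FC = -1.34 ± 0.19, adjusted p = 0.000139). In YFP heads the IPs held 910, 605 and 706 CPM and the inputs 960, 800 and 658 CPM, which overlapped (log2FC = -0.12 ± 0.19, adjusted p = 0.69). The TDP-43 IPs and inputs did not overlap.

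*Mdr65* (FBgn0004513, chromosome arm 3L), an ABC transporter of the blood-brain barrier, was depleted in the TDP-43 WT IP, at 20.2, 29.8 and 29.1 CPM against 53.4, 61.0 and 87.4 CPM in the inputs (log2FC = -1.35 ± 0.25, adjusted p = 0.000729). Its log2FC was -0.74 in TDP-43 G298S and -0.89 in YFP (adjusted p = 0.0415 and 0.0135), so it lay below 0 in each genotype and passed the fold threshold in that of TDP-43 WT. *Lac* (FBgn0010238, chromosome arm 2R), which encodes the immunoglobulin-domain protein Lachesin, was depleted with TDP-43 G298S, at 64.7, 48.2 and 68.5 CPM in the IPs against 134, 147 and 151 CPM in the inputs (log2FC = -1.26 ± 0.20, adjusted p = 0.000302). IP and input did not overlap for either gene. With the unbound fraction in place of the input as reference, the log2FC of *nrv2*, *Mdr65* and *Lac* no longer passed the threshold in either TDP-43 IP.

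**Figure D2:**
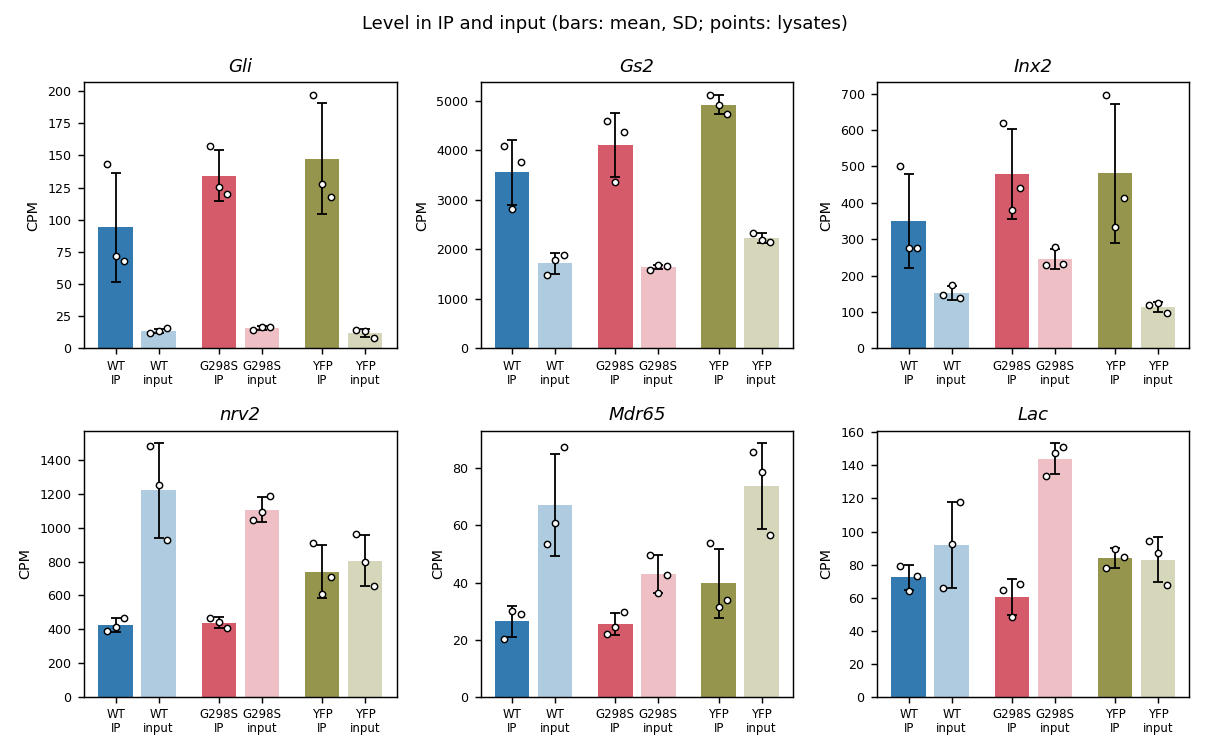
Bars are mean CPM in IP (full colour) and input (pale) of 3 lysates, whiskers the SD, and points the lysates, for *Gli*, *Gs2*, *Inx2*, *nrv2*, *Mdr65* and *Lac* in TDP-43 WT, TDP-43 G298S and YFP heads. IP bars of *Gli*, *Gs2* and *Inx2* exceed their inputs in every genotype, while those of *nrv2* are lower than input in the TDP-43 genotypes and near it in YFP.

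The remaining members did not pass both thresholds, and several had small differences with an adjusted p below 0.05. In the TDP-43 WT IP these included *zyd* (log2FC = -0.80), *Tret1-1* (-0.72), *Cont*, an immunoglobulin-domain partner of Neurexin IV (-0.57), and *gb*, a cystine and glutamate exchanger (-0.51). In the TDP-43 G298S IP they included *e* at 0.91, *Eaat1* at -0.74 and *kune*, a claudin-like protein, at 0.66. In the YFP IP they included *drpr*, the engulfment receptor of glia, at 0.78, *moody*, the G-protein coupled receptor of barrier glia, at 0.65, and *Eaat1* at 0.64. The other members not called, and not named above, lay between -0.38 and 0.40 in TDP-43 WT, -0.60 and 0.65 in TDP-43 G298S and -0.50 and 0.57 in YFP. By role, 0 of the 4 genes of glial fate and signalling (*repo*, *loco*, *htl*, *drpr*) and 0 of the 2 of wrapping and cortex glia (*wrapper*, *axo*) were called in any IP. In *repo* the TDP-43 WT lysates ranged from -0.38 to 1.19, with WT-502 the highest. Antisense genes overlap 13.5% of the exon bases of *loco* and 10.2% of those of *ogre*, with 1160 and 70 reads over all libraries against 22909 for *loco* and 203255 for *ogre*.

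Other genes of the same pathways were counted in the same way. Of 16 further septate junction genes tested, 2 were enriched and 0 depleted in each IP, and they were *Nrg* (Neuroglian, log2FC = 1.28) and *bark* (1.14) with TDP-43 WT, *bark* (1.08) and *pasi1* (1.05) with TDP-43 G298S, and *Atpalpha*, the α subunit of the Na,K-ATPase (1.81), and *Nrg* (1.14) with YFP. Of 5 further innexins tested 1, the neuronal *shakB*, was enriched with YFP (1.77) and 0 with either TDP-43. Of 22 further glial genes tested 2 were enriched (*pyr*, *pnt*) and 2 depleted (*ine*, *Ncc69*) in the TDP-43 WT IP, 0 and 0 in that of TDP-43 G298S, and 1 (*pyr*) and 1 (*Ncc69*) in that of YFP. Of 11 neuronal markers 7 were enriched in the TDP-43 WT IP, 4 in that of TDP-43 G298S and 7 in the control IP, and of 11 Kenyon cell markers 7, 4 and 6 were. Depleted were 1, 0 and 0 neuronal and 0, 0 and 0 Kenyon cell markers. Of 10 photoreceptor markers 1 was enriched and 1 depleted in the TDP-43 WT IP, 0 and 1 in that of TDP-43 G298S and 1 and 1 in the control IP, and of 8 fat body markers 1 and 1 in each. Scaled over all 27 libraries, summed fat body mRNAs stood at 10521 to 11580 CPM in TDP-43 WT IPs, against 18706 to 20791 in inputs. They stood at 10361 to 15141 against 15686 to 28550 CPM in TDP-43 G298S and 8547 to 13341 against 15528 to 25173 CPM in YFP. Of 8 muscle markers 2 were enriched and 0 depleted, 0 and 1, and 1 and 0 in the 3 IPs in the same order, of 8 tracheal and epidermal markers 2 and 3, 2 and 2, and 3 and 1, and of 6 hemocyte markers 0 and 0, 0 and 0, and 1 and 0. The part of this in the values of the 31 genes was not tested.

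The second question was which enrichment exceeded that of the YFP control, tested as the difference of the log2 IP over input ratios. For TDP-43 WT 0 of the 31 were enriched beyond YFP (1.26% of all genes tested were) and 1, *nrv2*, was lower than in YFP (0.0542% of all genes). For TDP-43 G298S 0 were enriched beyond YFP (0.348% of all genes) and 3 were lower, *Eaat1*, *Lac* and *nrv2* (0.371% of all genes). By library totals alone 5 were enriched beyond YFP and 0 lower for TDP-43 G298S, beside 1445 and 9 of all 12921 genes. The median of all genes moved by 0.68 there. At an unadjusted p below 0.05 there were 12 members in the TDP-43 WT comparison and 8 in that of TDP-43 G298S, in either direction. The share of all genes at that cutoff was not counted, so these numbers have no background. The median difference of the 31 was -0.30 in the first and -0.07 in the second comparison, beside 0.00 and -0.02 over all genes. Both comparisons used the same 6 YFP libraries, so they are not independent of each other.

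**Figure D3:**
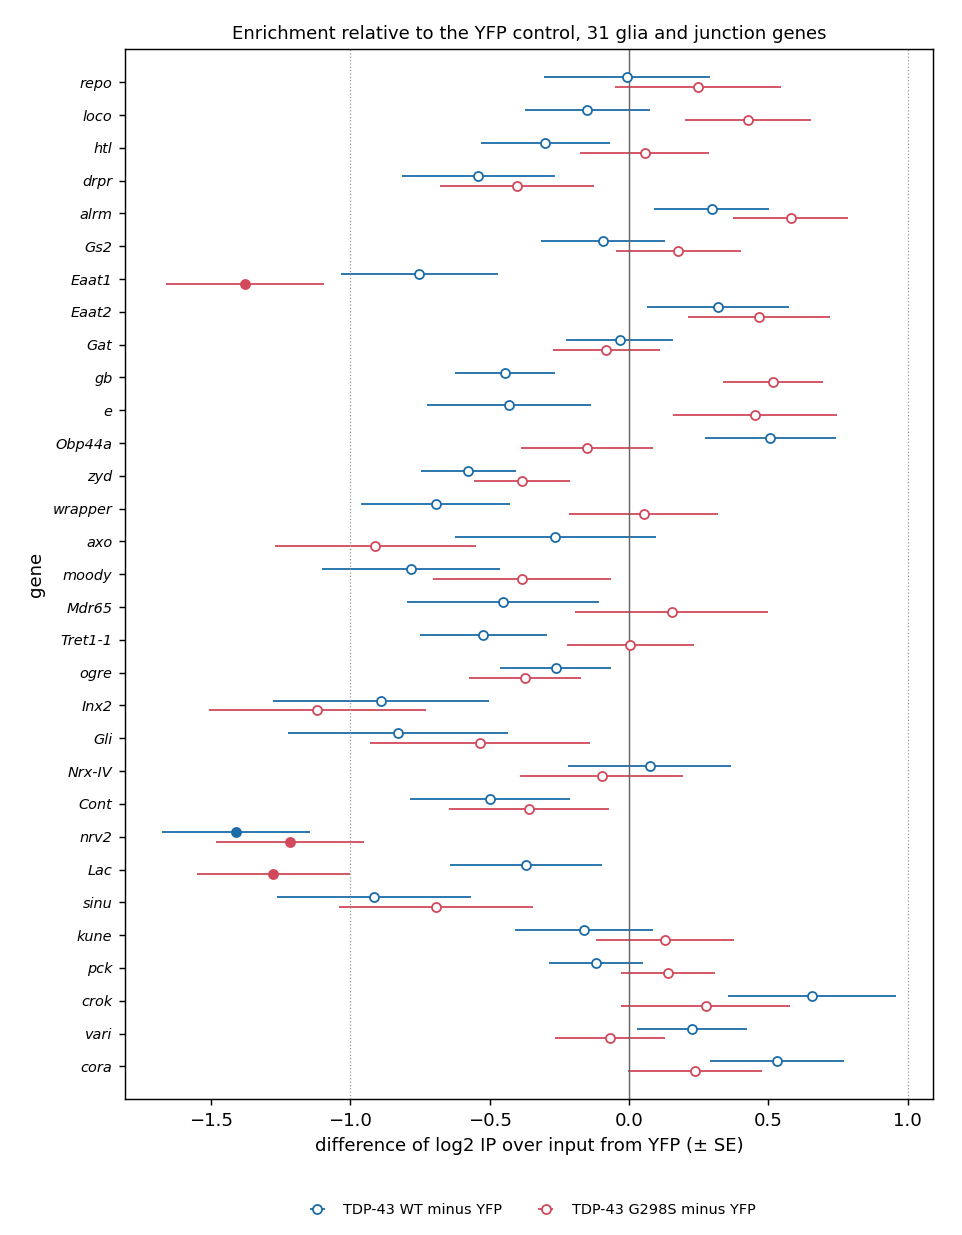
Each gene has a blue point (TDP-43 WT minus YFP) and a red one (TDP-43 G298S minus YFP), the difference of the log2 IP over input ratios with its SE; filled points passed both thresholds and dotted lines mark -1 and 1. The 4 filled points (*nrv2* for both variants, *Eaat1* and *Lac* for TDP-43 G298S) lie below -1 and none lies above 1.

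For *nrv2* the difference was -1.41 ± 0.27 (adjusted p = 0.0113) for TDP-43 WT and -1.22 ± 0.27 (adjusted p = 0.0453) for TDP-43 G298S. The log2 ratio per lysate was -1.94, -1.60 and -0.99 in TDP-43 WT and -1.16, -1.30 and -1.55 in TDP-43 G298S, against -0.08, -0.40 and 0.10 in YFP, so that neither TDP-43 group overlapped the control. For *Eaat1* the ratios per lysate were -0.49, -0.92 and -0.82 in TDP-43 G298S and 0.79, 0.22 and 0.86 in YFP, with a difference of -1.38 ± 0.28 (adjusted p = 0.0350). For *Lac* they were -1.04, -1.61 and -1.14 in TDP-43 G298S and -0.27, 0.04 and 0.32 in YFP, with a difference of -1.28 ± 0.27 (adjusted p = 0.0429). The IP levels of *Eaat1* themselves overlapped, at 462, 365 and 407 CPM in TDP-43 G298S and 503.3, 321 and 387 CPM in YFP, while its inputs, at 651, 690 and 721 CPM in TDP-43 G298S and 290, 275 and 214 CPM in YFP, did not. The IP levels of *nrv2* given above did not overlap between either TDP-43 genotype and YFP.

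These 4 calls depended on the fit. For TDP-43 G298S minus YFP 0 members were lower with all 27 libraries in the fit (6 of all 13349 genes). Without mitochondrially encoded and rRNA genes 1 was lower (17 of all 12894). For TDP-43 WT minus YFP 0 were lower with only the compared groups (1 of all 12586). With the unbound fraction as reference the difference of *nrv2* was 0.042 for TDP-43 WT and 0.029 for the mutant. That of *Eaat1* for the mutant was 0.71, and none of these was called. For each variant 2 members were enriched beyond YFP in that fit (547 of all 13349 genes for TDP-43 WT, 214 for the mutant). Lower were 0 members for each (10 and 16 of all genes). Leaving out any 1 of the 6 TDP-43 G298S or YFP lysates left 0 of the 3 TDP-43 G298S calls. In each of these fits 0 or 1 of all genes was lower. Leaving out WT-505 left 1 (*Eaat1*), beside 46 of all genes. The call of *nrv2* in TDP-43 WT was lost without WT-502, WT-505 or YFP-201, where its value was -1.19, -1.37 and -1.32. Members not called but among the largest differences were *sinu* (-0.92), *Inx2* (-0.89), *Gli* (-0.83) and *moody* (-0.78) for TDP-43 WT and *Inx2* (-1.12), *axo* (-0.91) and *sinu* (-0.69) for TDP-43 G298S, with adjusted p values of 0.192 or more. Among the 16, 5 and 22 further septate junction, gap junction and glial genes, 0 were called in either direction for either variant.

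The third question was whether the wild-type and the mutant protein differed. In TDP-43 WT minus TDP-43 G298S, called at an adjusted p below 0.05, 0 of the 31 were higher (0.255% of all genes) and 1, *gb*, was lower, and it was the only lower gene of all those tested (0.00774%). Its level was 16.8, 19.0 and 19.2 CPM in the TDP-43 WT IPs against 23.3, 27.1 and 28.4 CPM in the inputs, and 26.9, 27.5 and 28.9 CPM in the TDP-43 G298S IPs against 19.8, 18.5 and 22.9 CPM in the inputs. The log2 ratio per lysate was thus -0.46, -0.51 and -0.56 with TDP-43 WT, against 0.44, 0.57 and 0.33 with TDP-43 G298S, which did not overlap (difference = -0.96 ± 0.18, adjusted p = 0.0389). YFP lysates lay between, at -0.11, -0.19 and 0.06. The direction held under all 18 alternatives, but the adjusted p stayed under 0.05 in 3 of them, and with the lysate as a block it was 0.218 (0.000121 to 0.275 over the alternatives). The antisense gene *asRNA:CR45209* overlaps 32.8% of the exon bases of *gb* on the other strand, and since no source used here says whether counting used strand, their reads cannot be told apart. Of the rest, *Lac* (0.91), *e* (-0.88), *wrapper* (-0.75), *Obp44a* (0.66) and *axo* (0.65) had the largest differences, with adjusted p values of 0.372 to 0.761.

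Levels in the head inputs were then compared between genotypes, at an adjusted p below 0.05. In TDP-43 WT over YFP heads 3 of the 31 were higher (*Eaat1*, *Tret1-1*, *nrv2*; 7.58% of all genes tested were) and 3 lower (*Obp44a*, *alrm*, *vari*; 7.37%). In TDP-43 G298S over YFP heads 5 were higher (*Eaat1*, *Inx2*, *Lac*, *cora*, *Tret1-1*; 15.4% of all genes) and 6 lower (*Obp44a*, *alrm*, *Mdr65*, *Eaat2*, *vari*, *gb*; 12%). In TDP-43 WT over TDP-43 G298S heads 0 were higher (0.139% of all genes) and 0 lower (0.108%) in edgeR. DESeq2 called 0 higher and 2 lower, beside 174 and 153 of all 16432 genes. In edgeR 8 members had an unadjusted p below 0.05, a cutoff at which all genes were not counted. Library totals alone moved the median of all genes by -0.41 (TDP-43 G298S over YFP) and 0.39 (TDP-43 WT over TDP-43 G298S). The splits were then 2 higher and 17 lower for TDP-43 G298S over YFP, beside 1103 and 3928 of all 12921 genes. They were 2 and 3 for TDP-43 WT over YFP (928 and 907 of all genes). Between the TDP-43 genotypes they were 9 and 0 (1623 and 25). With DESeq2 size factors they were, in the same order, 7 and 6 (2244 and 1196), 4 and 2 (1334 and 746) and 0 and 0 (15 and 12). In bulk RNA, fewer cells of a type and less RNA per cell cannot be told apart. The glial markers did not move as 1 group, and genes of transmitter uptake and metabolism were called in both directions within the same heads.

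**Figure D4:**
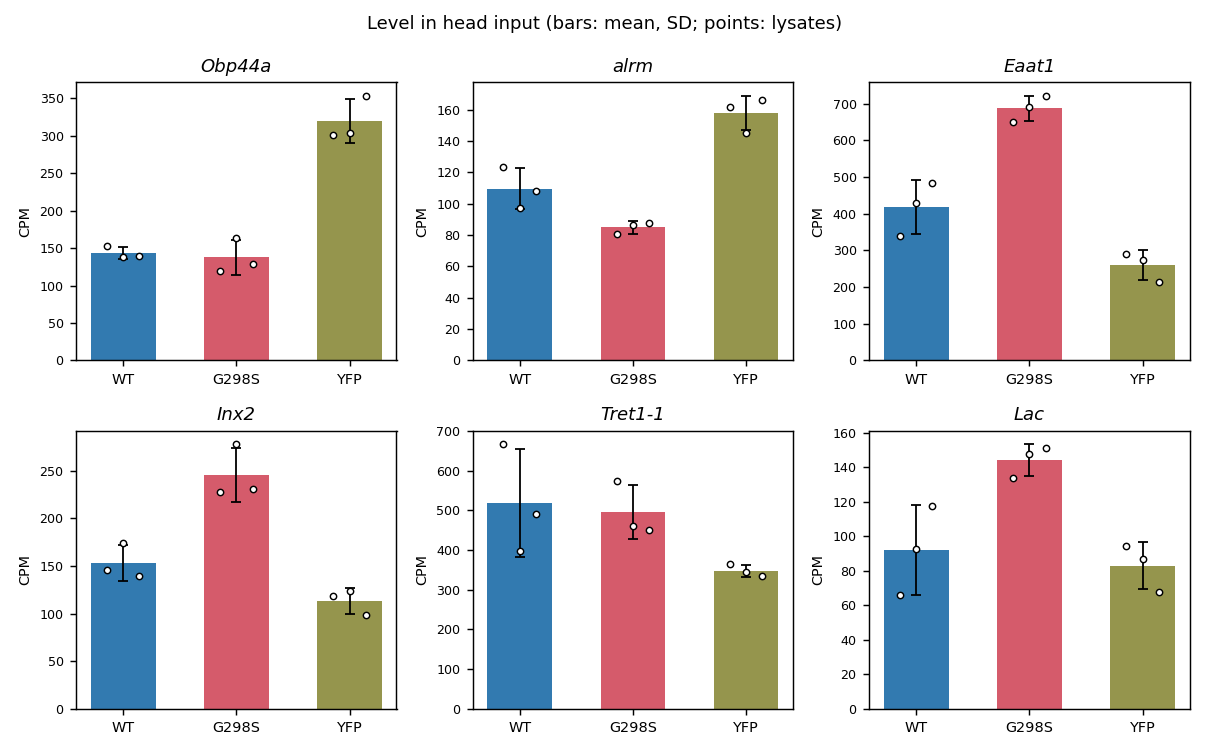
Bars are mean CPM in head input of 3 lysates in TDP-43 WT, TDP-43 G298S and YFP, whiskers the SD and points the lysates, for *Obp44a*, *alrm*, *Eaat1*, *Inx2*, *Tret1-1* and *Lac*. *Obp44a* and *alrm* are lower in both TDP-43 genotypes than in YFP, *Eaat1* and *Tret1-1* higher in both, and *Inx2* and *Lac* are highest in TDP-43 G298S.

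*Obp44a* (FBgn0033268, chromosome arm 2R) had the largest fall. Its input level was 152, 138 and 140 CPM in TDP-43 WT and 120, 164 and 129 CPM in TDP-43 G298S, against 301, 304 and 354 CPM in YFP heads. All 6 TDP-43 inputs lay below all 3 YFP inputs, with log2FC = -1.16 ± 0.17 (adjusted p = 0.000956) for TDP-43 WT and -1.22 ± 0.17 (adjusted p = 0.000358) for TDP-43 G298S. *Pabp2* on the other strand overlaps 19.1% of its exon bases. *alrm* (FBgn0039332, chromosome arm 3R) stood at 124, 97.2 and 108 CPM in TDP-43 WT and 80.4, 86.6 and 87.9 CPM in TDP-43 G298S, against 162, 145 and 166 CPM in YFP (log2FC = -0.53 ± 0.15 and -0.89 ± 0.15, adjusted p = 0.0280 and 0.000891). *vari*, a membrane-associated guanylate kinase of the junction scaffold, was also lower in both, at log2FC = -0.46 ± 0.14 (adjusted p = 0.0372) in TDP-43 WT and -0.47 ± 0.14 (adjusted p = 0.0207) in TDP-43 G298S. Its levels were 87.7, 88.9 and 89.1 CPM and 83.3, 92.9 and 88.3 CPM, against 129, 127 and 110 CPM in YFP, and *Pomp*, which overlaps 15.2% of its exon bases from the other strand, had the larger count (135901 reads over all libraries, against 65010 for *vari*).

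*Eaat1* (FBgn0026439, chromosome arm 2L) went the other way. Its input level was 340, 430 and 485 CPM in TDP-43 WT and 651, 690 and 721 CPM in TDP-43 G298S, against 290, 275 and 214 CPM in YFP, with no overlap between either TDP-43 group and the control. The log2FC was 0.69 ± 0.20 (adjusted p = 0.0327) for TDP-43 WT and 1.40 ± 0.20 (adjusted p = 0.000446) for TDP-43 G298S. *Tret1-1* (FBgn0050035, chromosome arm 2R) was at 667, 397 and 491 CPM in TDP-43 WT and 573, 461 and 451 CPM in TDP-43 G298S, against 365, 344 and 336 CPM in YFP (log2FC = 0.57 ± 0.16 and 0.51 ± 0.16, adjusted p = 0.0292 and 0.0291). *nrv2* was higher in TDP-43 WT input (log2FC = 0.60 ± 0.19, adjusted p = 0.0433), although its 928 to 1483 CPM overlapped the 658 to 960 CPM of YFP. In TDP-43 G298S input its log2FC was 0.46 (adjusted p = 0.0782).

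The other calls were in TDP-43 G298S heads. *Inx2* was at 228, 278 and 231 CPM, against 118, 124 and 98.3 CPM in YFP (log2FC = 1.11 ± 0.28, adjusted p = 0.00855), and *Lac* at 134, 147 and 151 CPM, against 94.0, 87.0 and 67.6 CPM in YFP (log2FC = 0.80 ± 0.19, adjusted p = 0.00722). *cora*, the FERM-domain protein Coracle that anchors the septate junction, was at 75.1, 74.0 and 77.7 CPM, against 59.4, 57.5 and 38.6 CPM in YFP (log2FC = 0.55 ± 0.17, adjusted p = 0.0260). Lower were *Eaat2*, a transporter of aspartate and taurine, at 113, 123 and 133 CPM against 217, 226 and 151 CPM in YFP (log2FC = -0.69 ± 0.18, adjusted p = 0.0110), and *Mdr65* at 49.7, 36.4 and 42.6 CPM against 85.6, 78.6 and 56.8 CPM in YFP (log2FC = -0.78 ± 0.24, adjusted p = 0.0263). *gb* fell by less, with log2FC = -0.46 ± 0.13 (adjusted p = 0.0141). In none of these did the TDP-43 G298S and YFP inputs overlap. The calls of *Eaat1*, *Inx2*, *Obp44a* and *alrm* in TDP-43 G298S and of *Obp44a* in TDP-43 WT held without each lysate. In TDP-43 WT input 0 members were higher without YFP-902 or YFP-201, beside 409 and 1987 of all genes. There 1 was lower without WT-505, G298S-506, G298S-203 or YFP-902, beside 581, 758, 708 and 529 of all genes. In TDP-43 G298S input 2 were lower without YFP-902, beside 1129 of all genes. There 3 were higher without G298S-503, G298S-506, G298S-203, YFP-902 or YFP-201, beside 1641, 1238, 1118, 1381 and 2879 of all genes.

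Several measures of the whole libraries moved with these genotypes, and their part in the differences was not tested. Mitochondrially encoded genes took 30.1 to 37.4% of counts in TDP-43 WT inputs and 47.5 to 49.6% in TDP-43 G298S inputs, against 28.7 to 32.0% in YFP inputs. Of the markers of other cell types, 4 of 10 photoreceptor genes were lower in TDP-43 WT and 9 of 10 in TDP-43 G298S than in YFP, 4 of 11 and 8 of 11 neuronal genes higher, 3 of 11 and 9 of 11 Kenyon cell genes higher, and 2 of 6 and 5 of 6 hemocyte genes higher. Of 8 muscle genes 3 and 2 were lower, of 8 fat body genes 2 and 1 higher, and of 8 tracheal and epidermal genes 0 and 2 higher. No marker of these lists was at 0 in any input. The labels of the 9 lysates carry 3 numeric prefixes whose meaning no source gives, and 1 of them is shared by a lysate of each genotype (WT-202, G298S-203, YFP-201), while the others hold TDP-43 lysates or YFP lysates alone. Within the shared prefix, with 1 lysate per genotype, *Obp44a* stood at 140 and 129 CPM, against 354 CPM in YFP. *alrm* stood at 108 and 87.9 (166 in YFP), *Eaat1* at 485 and 721 (214) and *Inx2* at 139 and 231 (98.3). Over all lysates the inputs of these genes did not overlap between either TDP-43 genotype and YFP. The order within the prefix could therefore not have differed, and it says nothing on the part of the prefix. With the prefix as a term, 0 of the 3 members called higher and 1 of the 3 called lower in TDP-43 WT input (*Obp44a*) stayed called. Of all 12921 genes 309 were higher and 418 lower there, against 980 and 952 without the term. For TDP-43 G298S 6 members were called higher and 3 lower. Of all genes 1315 and 893 were, against 1986 and 1549 without the term. Of the 11 calls in TDP-43 G298S input *Eaat1*, *Inx2*, *Lac*, *cora*, *Obp44a* and *alrm* were kept. Lost were 5, *Eaat2* (adjusted p = 0.243), *gb* (0.0764), *Mdr65* (0.528), *Tret1-1* (0.199) and *vari* (0.1999). *drpr*, *sinu* and *crok* were called in the fit with the prefix and not in the main one. The further lists had 1 higher and 1 lower of 16 septate junction genes in TDP-43 WT input and 4 and 1 in TDP-43 G298S input, and 1 and 1 and 6 and 4 of 22 glial genes. Among them were *fabp*, a fatty acid binding protein, at log2FC = -1.47 and -1.33 in the TDP-43 WT and TDP-43 G298S inputs, and *Nrg* at 1.05 and *l(2)gl* at 1.31 in TDP-43 G298S input.

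Unbound RNA was set against the input of its own genotype in the fit to all 27 libraries, whose scaling differs slightly from that above. In TDP-43 WT 1 of the 31 was higher in the unbound RNA (*Obp44a*; 9.1% of all genes tested were) and 8 lower (7.8% of all genes). In TDP-43 G298S 2 were higher (*Obp44a*, *pck*; 9.63% of all genes) and 7 lower (8.79%). In YFP 0 were higher and 0 lower (0% and 0% of all genes in edgeR). DESeq2 called 0 members too, and 67 higher and 1 lower of all genes. In edgeR 5 members had an unadjusted p below 0.05, and the share of all genes at that cutoff was not counted. The median of the 31 was -0.31 in TDP-43 WT, -0.29 in TDP-43 G298S and -0.08 in YFP, beside 0.08, 0.14 and -0.10 over all genes. In TDP-43 G298S the split was 5 higher and 5 lower by library totals alone (2414 and 944 of all 13349 genes). Without mitochondrially encoded and rRNA genes it was 0 and 13 (522 and 1482 of all 13253).

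**Figure D5:**
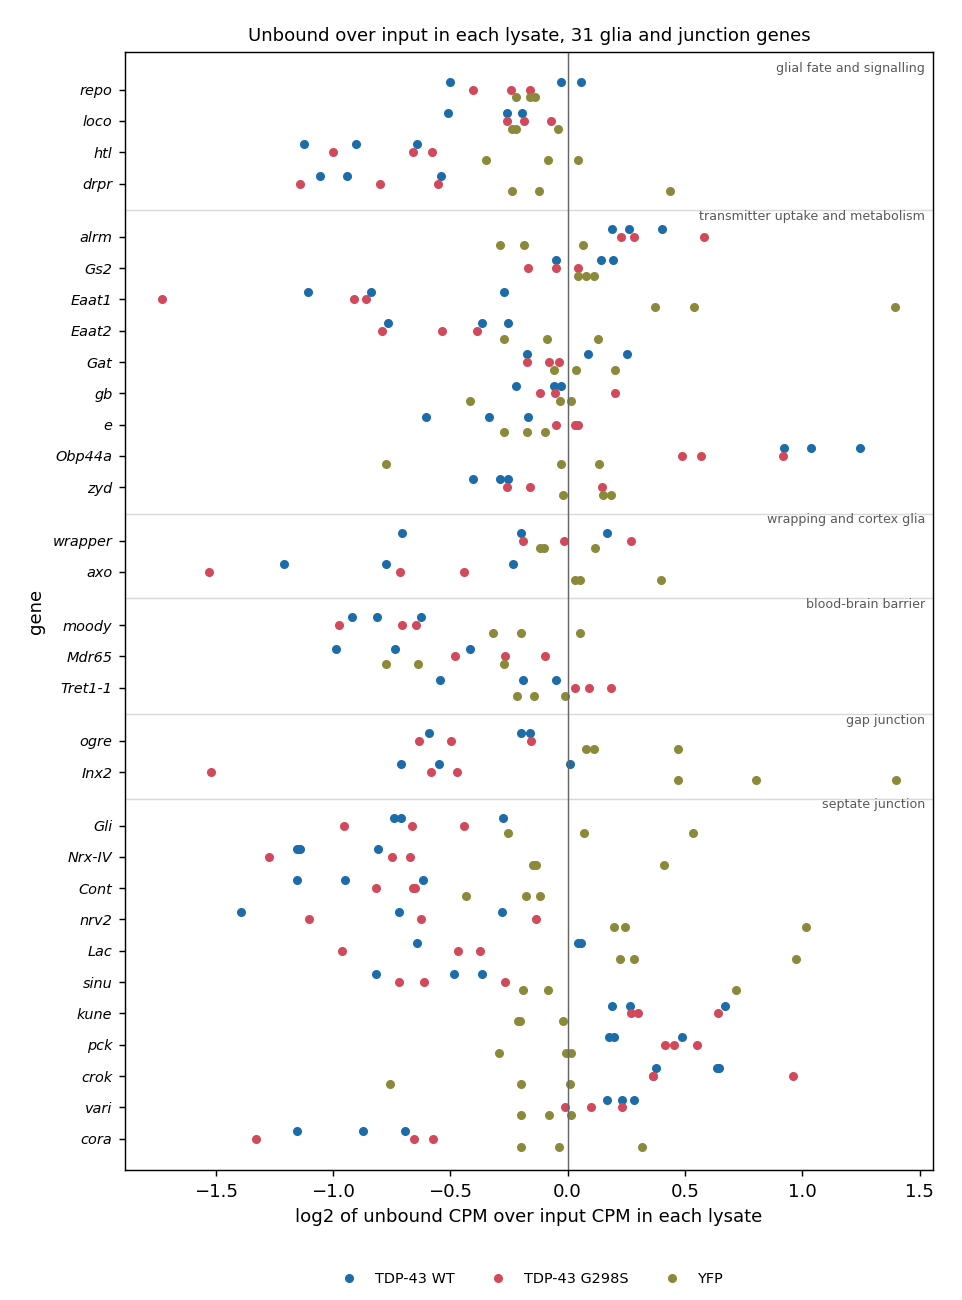
Each row is 1 gene and each point 1 lysate (blue TDP-43 WT, red TDP-43 G298S, olive YFP); the x axis is the log2 of unbound CPM over input CPM. *Obp44a*, *alrm*, *kune*, *pck* and *crok* lie above 0 in the 6 TDP-43 lysates. *htl*, *drpr*, *moody*, *Nrx-IV*, *Cont* and *cora* lie below 0 in them. So do *loco*, *Eaat1*, *Eaat2*, *axo*, *Mdr65*, *ogre*, *Gli*, *sinu* and *nrv2*. The YFP points of most genes scatter around 0.

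The genes lower in the unbound RNA of both TDP-43 genotypes were *htl*, *drpr*, *moody*, *Nrx-IV* (Neurexin IV, the transmembrane core of the septate junction), *Cont* and *cora*. *Nrx-IV* was at 22.7, 43.7 and 33.4 CPM in the TDP-43 WT unbound RNA against 50.5, 76.6 and 73.7 CPM in input (log2FC = -1.01 ± 0.24, adjusted p = 0.0105), and at 43.0, 23.0 and 41.2 CPM in that of TDP-43 G298S against 72.2, 55.7 and 65.6 CPM in input (log2FC = -0.85 ± 0.24, adjusted p = 0.0276). *cora* gave log2FC = -0.89 ± 0.21 (adjusted p = 0.00932) and -0.80 ± 0.21 (adjusted p = 0.0236). Its values were 27.8, 47.0 and 31.7 CPM unbound against 51.0, 76.0 and 70.4 CPM in TDP-43 WT input, and 46.6, 26.0 and 47.7 CPM unbound against 73.4, 65.3 and 71.1 CPM in TDP-43 G298S input. In both of these core junction mRNAs unbound and input were apart in either TDP-43 genotype. In YFP heads *Nrx-IV* was at 48.0, 48.8 and 56.2 CPM unbound and 52.7, 54.2 and 42.3 CPM in input, which overlapped. The difference from YFP, tested below, was not called for *Nrx-IV* or *cora* in either variant.

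*Cont* was at 16.7, 25.9 and 20.2 CPM unbound against 32.3, 39.8 and 45.1 CPM in TDP-43 WT input (log2FC = -0.90 ± 0.20, adjusted p = 0.00740), and at 25.5, 18.9 and 24.8 CPM unbound against 40.1, 33.4 and 39.1 CPM in TDP-43 G298S input (-0.70 ± 0.20, adjusted p = 0.0260). *htl* was at 6.68, 10.7 and 8.61 CPM unbound against 14.7, 16.7 and 16.1 CPM in TDP-43 WT input (-0.87 ± 0.17, adjusted p = 0.00608), and at 9.65, 6.52 and 9.94 CPM unbound against 14.4, 13.1 and 15.8 CPM in TDP-43 G298S input (-0.72 ± 0.17, adjusted p = 0.0235). Neither mRNA overlapped its input. The log2 ratio per lysate of *drpr* was -1.06, -0.54 and -0.94 in TDP-43 WT (log2FC = -0.81 ± 0.21, adjusted p = 0.0131) and -0.80, -1.14 and -0.55 in TDP-43 G298S (-0.80 ± 0.21, adjusted p = 0.0235), against -0.12, -0.24 and 0.44 in YFP. That of *moody* was -0.81, -0.62 and -0.92 in TDP-43 WT (log2FC = -0.78 ± 0.21, adjusted p = 0.0189) and -0.65, -0.97 and -0.71 in TDP-43 G298S (-0.76 ± 0.21, adjusted p = 0.0261), against -0.20, -0.32 and 0.05 in YFP. All 12 TDP-43 ratios of the pair lay below the YFP ones of the same gene. In the comparison with YFP given below, the difference was not called for *drpr*, *moody*, *Cont* or *htl* in either variant. With the lysate as a block it was called for *htl* and *Nrx-IV* with TDP-43 WT, and for *drpr* and *cora* with both variants.

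*nrv2* and *Mdr65* were called lower with TDP-43 WT. *nrv2* was at 505.2, 736 and 650 CPM unbound against 1326, 1210 and 788 CPM in input (log2FC = -0.81 ± 0.23, adjusted p = 0.0215), and *Mdr65* at 28.7, 44.1 and 37.5 CPM unbound against 47.8, 59.0 and 74.2 CPM in input (-0.71 ± 0.23, adjusted p = 0.0373). In TDP-43 G298S *Eaat1* was lower in the unbound RNA, at 339, 184 and 363 CPM against 636, 609 and 659 CPM in input (log2FC = -1.10 ± 0.28, adjusted p = 0.0235). *Obp44a* was higher, at 323, 274 and 225 CPM unbound against 136, 134 and 118 CPM in TDP-43 WT input (log2FC = 1.08 ± 0.21, adjusted p = 0.00608), and at 174, 273 and 165 CPM unbound against 117, 145 and 118 CPM in TDP-43 G298S input (log2FC = 0.69 ± 0.21, adjusted p = 0.0299). *pck*, the claudin-like Megatrachea, was higher in the unbound RNA of TDP-43 G298S, at 58.8, 46.6 and 46.2 CPM against 40.1, 34.0 and 34.6 CPM in input (log2FC = 0.48 ± 0.12, adjusted p = 0.0235). None of these fractions overlapped. With the lysate as a block, which pairs fractions of the same lysate, 11 members were lower and 2 higher in TDP-43 WT. Of all 13349 genes 1828 were lower and 1979 higher there. In TDP-43 G298S 12 members were lower and 3 higher, beside 1951 and 1929 of all genes. With only the compared groups in the fit 0 members were called in either direction. Of all genes 0 were called as well, among 12874 in TDP-43 WT and 12939 in TDP-43 G298S. Without WT-502 or WT-202 4 members were lower in the wild-type comparison, beside 243 and 208 of all genes. In that of TDP-43 G298S 0 were called without any 1 of its own lysates, where 0 of all genes were. Without WT-502 14 were lower in TDP-43 G298S, beside 1819 of 13545 genes.

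The difference of these unbound over input ratios from the YFP control was tested by a comparison added after the data were seen. For TDP-43 WT 1 member was higher than in YFP (*Obp44a*, 1.31 ± 0.29, adjusted p = 0.0311; 5.06% of all genes tested were) and 2 were lower (*Eaat1*, -1.49 ± 0.39, adjusted p = 0.0349, and *nrv2*, -1.32 ± 0.32, adjusted p = 0.0319; 3.09%). For TDP-43 G298S 2 were higher (*Obp44a*, 0.92 ± 0.29, adjusted p = 0.0402, and *pck*, 0.57 ± 0.17, adjusted p = 0.0365; 6.9% of all genes) and 4 lower (8.79%). The 4 were *Eaat1* (-1.92 ± 0.39, adjusted p = 0.0318), *Inx2* (-1.74 ± 0.46, adjusted p = 0.0318), *Lac* (-1.09 ± 0.29, adjusted p = 0.0318) and *nrv2* (-1.07 ± 0.32, adjusted p = 0.0365). In the unbound over input ratio of *Eaat1* the lysates of TDP-43 WT were at -0.84, -0.27 and -1.10 and those of TDP-43 G298S at -0.91, -1.73 and -0.86, against 0.54, 0.37 and 1.40 in YFP, where YFP-201 was highest. *Inx2* was at -0.47, -1.52 and -0.58 in TDP-43 G298S, against 0.80, 0.47 and 1.40 in YFP. *nrv2* was at -1.39, -0.72 and -0.28 in TDP-43 WT and -0.13, -1.10 and -0.62 in TDP-43 G298S, against 0.20, 0.24 and 1.02 in YFP. Thus in TDP-43 G298S ratios were below 0 and in YFP above 0 for all 3 mRNAs, and likewise for *Lac*, in TDP-43 G298S (-0.37, -0.96 and -0.47) against YFP (0.28, 0.22 and 0.97). *Obp44a* was at 1.25, 1.04 and 0.92 in TDP-43 WT and 0.57, 0.92 and 0.49 in TDP-43 G298S, against 0.14, -0.03 and -0.78 in YFP, and *pck* at 0.55, 0.46 and 0.42 in TDP-43 G298S, against -0.01, 0.01 and -0.29 in YFP. With the lysate as a block 2 members were higher and 7 lower for TDP-43 WT (1302 and 1362 of all 13349 genes). For the mutant 3 were higher and 7 lower than in YFP (1299 and 1671). By library totals alone the split was 8 higher and 2 lower for TDP-43 G298S (3447 and 536 of all 13349 genes). With DESeq2 size factors it was 1 and 9 for TDP-43 WT (808 and 1134) and 2 and 9 for the mutant (932 and 1569). Without mitochondrially encoded and rRNA genes it was 0 and 0 for TDP-43 WT (0 and 0 of all 13253 genes). For the mutant it was then 0 and 6 (243 and 1345). Without YFP-201 0 members were called for either variant, and 0 of all 13594 genes tested. For TDP-43 WT 0 were also lower without WT-502, WT-202, G298S-503 or YFP-902, where 0 of all genes were called. Without G298S-203 0 were lower, beside 29 of all 13543 genes, and without WT-505 7, beside 1102 of 13560. For TDP-43 G298S 0 were called without any 1 of its own lysates, where 0 of all genes were. Without WT-502 10 were lower for TDP-43 G298S, beside 1672 of 13545 genes.

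Markers of other cell types also differed between unbound RNA and input, and their part in the members' values was not tested. Of neuronal and Kenyon cell markers 1 of 11 and 5 of 11 were called lower in TDP-43 WT, 3 of 11 and 5 of 11 in TDP-43 G298S and 0 of either in YFP. Of the other lists 2 of 10 photoreceptor and 1 of 6 hemocyte markers were lower in TDP-43 WT, and 1 of 10 photoreceptor, 1 of 8 muscle and 2 of 8 tracheal and epidermal markers in TDP-43 G298S, with 0 of any list higher in either. Summed fat body mRNAs, of which 0 of 8 were called, stood at 22284 to 27519 CPM unbound against 18706 to 20791 CPM in TDP-43 WT input, 21232 to 39465 against 15686 to 28550 CPM in TDP-43 G298S and 17400 to 19336 against 15528 to 25173 CPM in YFP. Summed hemocyte mRNAs stood at 147 to 194 CPM unbound against 195 to 281 CPM in TDP-43 WT input, 162 to 256 against 247 to 319 CPM in TDP-43 G298S and 161 to 194 against 164 to 189 CPM in YFP. Among the further septate junction genes 1 was higher and 3 lower of 16 in TDP-43 WT and 1 and 4 in TDP-43 G298S, with *l(2)gl* (-0.99 and -1.12) and *scrib* (-0.95 in TDP-43 WT), polarity genes, the lowest. Over all 14 comparisons 21 of the 31 members were called at least once, and 10 (*repo*, *loco*, *Gat*, *e*, *zyd*, *wrapper*, *axo*, *ogre*, *kune* and *crok*, a Ly6-type protein needed for septate junctions) in none.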

How the data were processed

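The deposited table held whole-number counts of reads per FlyBase gene for 27 libraries (9 lysates, 3 fractions each). Per the submitters' processing notes the authors used bcl2fastq 2.19.1.403, cutadapt 2.7, STAR 2.6.1d and featureCounts 1.6.3; genome release and strand setting are not given in the sources used here. Counts were tested with edgeR 4.0.16 (quasi-likelihood, TMM, filterByExpr, limma 3.58.1, R 4.3.3), with Benjamini-Hochberg adjustment over all genes tested: 18 IP and input libraries in 6 groups for most comparisons, all 27 in 9 groups for unbound RNA. IP over input and its difference from YFP were called at a log2FC beyond 1 and adjusted p below 0.05, other comparisons at 0.05. Log CPM used a prior count of 2.

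The members and lists were chosen with earlier results of these data known. Every member was named, those called were given lysate by lysate, and at most the 5 largest differences of the rest and the 4 largest calls of a pathway list were named. Fractions of the same lysate pair by source, and their deviations correlated at 0.06 to 0.73 (IP and input) and 0.68 to 0.92 (unbound and input). Alternatives were DESeq2 1.42.0, other scalings, no filter, other samples or reference, a label prefix term, a lysate block and each lysate left out. No columns of other series were used. The YFP transgenes and human TDP-43 are not among the fly genes counted.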

Additional observations from a re-analysis of the deposited data

Results flagged for a closer look

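Differences between genotypes in the same contrast passed the test of the difference itself for 14 pairs of gene and comparison. In IP over input these were *nrv2* in TDP-43 WT minus YFP (-1.41), *Eaat1* (-1.38), *Lac* (-1.28) and *nrv2* (-1.22) in TDP-43 G298S minus YFP, and *gb* in TDP-43 WT minus TDP-43 G298S (-0.96), all on the log2 scale. In unbound over input they were *Eaat1* (-1.49), *nrv2* (-1.32) and *Obp44a* (1.31) in TDP-43 WT minus YFP, and *Eaat1* (-1.92), *Inx2* (-1.74), *Lac* (-1.09), *nrv2* (-1.07), *Obp44a* (0.92) and *pck* (0.57) in TDP-43 G298S minus YFP.

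The input level enters both ratios, and for *Eaat1*, *Inx2* and *Lac* in TDP-43 G298S, *Eaat1* and *nrv2* in TDP-43 WT and *Obp44a* in both variants the inputs also differed from those of YFP, in the opposite direction (log2FC = 1.40, 1.11 and 0.80 in TDP-43 G298S, 0.69 and 0.60 in TDP-43 WT, and -1.16 in TDP-43 WT and -1.22 in TDP-43 G298S for *Obp44a*). The IP and the unbound RNA of a genotype are both set against these inputs, so the 2 ratios are not separate evidence. With 3 lysates a group, no test for a single outlying value was run on any gene.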

How the results depend on the processing

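Of 62 calls of a member in a comparison, 10 held under every alternative run: *Gli* in all 3 IPs, *Gs2* in the TDP-43 G298S IP, *Inx2* in the YFP IP, *Obp44a* in both TDP-43 inputs, and *alrm*, *Eaat1* and *Inx2* in TDP-43 G298S input. Direction was lost by 3 called differences, all with unbound RNA as reference: *nrv2* at 0.042 (TDP-43 WT minus YFP) and 0.029 (TDP-43 G298S minus YFP) and *Eaat1* at 0.71. Over all 62 calls, 773 of 1028 values under an alternative kept direction and side of the threshold. Of 7316 values of single genes, most of them never called, 6817 kept their side of the threshold without reversing a call, and 328 of those changed sign. The cause of the changes below was not tested. Numbers of members are given as higher, then lower. Numbers among all genes moved too. By library totals alone 3958 of all 12921 genes were higher in the TDP-43 G298S IP, and 3928 lower in TDP-43 G298S input over YFP. With only the compared groups 0 of all genes were called in either TDP-43 unbound comparison. Without mitochondrially encoded and rRNA genes 0 of all were called in the unbound difference of TDP-43 WT. Without any 1 TDP-43 G298S lysate 0 of all were called in TDP-43 G298S unbound.

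By library totals alone the TDP-43 WT IP had 1 lower (79 of all genes) and the TDP-43 G298S IP 16 and 0 (3958 and 33). TDP-43 G298S minus YFP had 5 and 0 (1445 and 9) and TDP-43 WT minus TDP-43 G298S 6 lower (282). TDP-43 G298S input over YFP had 2 and 17 (1103 and 3928) and TDP-43 WT input over TDP-43 G298S 9 higher (1623). TDP-43 G298S unbound had 5 higher (2414) and TDP-43 G298S minus YFP unbound 8 and 2 (3447 and 536). With DESeq2 the TDP-43 WT input over YFP had 5 higher (2309 of all 16432 genes) and the TDP-43 G298S input 10 higher (2840). TDP-43 WT input over TDP-43 G298S had 2 lower (153). TDP-43 WT unbound had 2 and 13 (1724 and 2052 of all 16521 genes) and TDP-43 G298S unbound 5 and 14 (2169 and 2082). The unbound differences from YFP had 11 lower for TDP-43 WT (1760) and 10 lower for TDP-43 G298S (1889). DESeq2 size factors in edgeR gave 11 lower in TDP-43 G298S unbound (1608 of all genes). In the 2 unbound differences 9 and 9 were lower (1134 and 1569). Without a filter on low counts TDP-43 WT minus TDP-43 G298S had 0 lower (0 of all genes) and TDP-43 G298S unbound 11 lower (1513). The unbound differences had 4 lower for TDP-43 WT (781) and 1 higher for TDP-43 G298S (760). Without mitochondrially encoded and rRNA genes the TDP-43 G298S IP had 4 higher (1112 of all genes). TDP-43 G298S minus YFP had 1 lower (17) and TDP-43 WT minus TDP-43 G298S 0 lower (0). TDP-43 G298S unbound had 0 and 13 (522 and 1482). The unbound differences had 0 and 0 for TDP-43 WT (0 and 0) and 0 higher for TDP-43 G298S (243).

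With only the compared groups, TDP-43 WT minus YFP and TDP-43 WT minus TDP-43 G298S had 0 lower (1 and 0 of all genes). TDP-43 WT input over YFP had 0 higher (329) and TDP-43 G298S input over YFP 12 lower (2767). Both TDP-43 unbound comparisons had 0 and 0 (0 and 0). The unbound differences had 0 lower for TDP-43 WT (4) and 10 lower for TDP-43 G298S (1864). With all 27 libraries the TDP-43 G298S IP had 4 higher (1107 of all genes). TDP-43 G298S minus YFP and TDP-43 WT minus TDP-43 G298S had 0 lower (6 and 2). With unbound RNA as reference the TDP-43 WT IP had 6 and 0 (2113 and 638 of all genes). The TDP-43 G298S IP had 8 and 1 (1990 and 955) and the YFP IP 2 higher (758). The differences from YFP had 2 and 0 for TDP-43 WT (547 and 10) and 2 and 0 for TDP-43 G298S (214 and 16). TDP-43 WT minus TDP-43 G298S had 0 lower (0). With the label prefix as a term, TDP-43 WT input over YFP had 0 and 1 (309 and 418 of all genes) and TDP-43 G298S input 3 lower (893). The lysate block gave TDP-43 WT unbound 2 higher (1979 of all genes) and TDP-43 G298S unbound 12 lower (1951). It gave the unbound differences 2 and 7 for TDP-43 WT (1302 and 1362) and 7 lower for TDP-43 G298S (1671). TDP-43 WT minus TDP-43 G298S had 0 lower (0), and the block moved no other number of members by over 1.5 times.

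Without 1 lysate in turn, the ranges were 1 to 3 higher and 2 to 2 lower in the TDP-43 WT IP, 2 to 3 and 2 to 2 in the TDP-43 G298S IP, 3 to 4 and 0 to 1 in the YFP IP, 0 to 1 lower in TDP-43 WT minus YFP, 0 to 3 lower in TDP-43 G298S minus YFP and 0 to 0 in TDP-43 WT minus TDP-43 G298S. In TDP-43 WT input over YFP the ranges were 0 to 3 and 1 to 4 (395 to 1987 and 407 to 980 of all genes). In TDP-43 G298S input over YFP they were 3 to 7 and 2 to 7 (1118 to 2879 and 831 to 1699). In TDP-43 WT unbound over input they were 1 to 1 and 4 to 8 (357 to 1286 and 208 to 1175 of all genes). In that of TDP-43 G298S they were 0 to 3 and 0 to 14 (0 to 1746 and 0 to 1819). In the unbound difference of TDP-43 WT from YFP they were 0 to 1 and 0 to 7 (0 to 726 and 0 to 1102). In that of TDP-43 G298S they were 0 to 3 and 0 to 10 (0 to 1226 and 0 to 1672). The depth of the shallowest IP (1848426 reads) limits the low mRNAs most, such as *axo* at 18 reads.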
